A study of Macaca fascicularis with 16 samples.

Results

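Imprinted genes are transcribed from a single parental allele, and many of them set how far embryonic and placental tissues grow. In mice and humans the paternally expressed members tend to promote growth or hold cells in an immature state, and the maternally expressed members tend to restrain it. The endometrium is an adult tissue that grows again under estrogen, and CDKN1C, an imprinted inhibitor of cyclin-dependent kinases, is known there for its rise when the stroma decidualizes. The 8 genes described here are DLK1, IGF2, PEG3, MEST and PLAGL1, which are paternally expressed in mice and humans, CDKN1C and PHLDA2, which are maternally expressed, and GRB10, whose imprint depends on the tissue. The arrays read total RNA and do not tell the parental alleles apart.

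Members were every probe set whose only gene symbol in the platform annotation was one of the 8 names. This gave 10 probe sets for 7 genes, of 52865 probe sets on the array and 14133 genes with a probe set of their own. GRB10 had 3 probe sets, PEG3 had 2, and DLK1, IGF2, MEST, PLAGL1 and PHLDA2 had 1 each. CDKN1C had no probe set under that symbol and was not analysed here. The set was chosen with earlier results from these arrays known, and DLK1 was placed at its head because of its levels, so the DLK1 values are a description without a test. The other 6 genes were in a fit over all probe sets, and counts of calls are given beside the share of all genes called. PHLDA2 was retained for that fit through its level in the drug arms, so its comparisons with control are a description too, and counts that involve the controls are over the other 5.

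The RNA was endometrial, from 16 female cynomolgus macaques (Macaca fascicularis) past menopause, with 1 array per animal, taken 4 months after random assignment to 4 parallel arms of 4. The estradiol arm received the micronized hormone at a low dose, 0.25 mg for each 1800 kcal eaten. The tamoxifen arm received 20 mg for each 1800 kcal of this drug, which blocks the estrogen receptor in breast and can activate it in uterus. The combination arm received both drugs at these doses, and the control arm received placebo. All arms share the postmenopausal state, ages are not given in the labels, and the arrays carry probes for another macaque, the rhesus. Signals are MAS5 intensities on a linear scale, scaled by the authors so that the trimmed mean of every array is 250.0, with medians from 58.7 to 70.3. Changes are differences of mean log2(signal + 4.80) with the standard error (SE) from limma, and a gene was called at a Benjamini-Hochberg adjusted p under 0.05 over 31659 probe sets. The 3 comparisons with placebo share the same 4 control arrays, and 4 arrays per arm limit the precision of each value.

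Median r between arrays, across probe sets that are not independent replicates, was 0.962 within arms and 0.936 between arms. PGR, the estrogen-induced progesterone receptor, changed by 1.26 (SE 0.22, adjusted p = 0.00115) with estradiol, 0.85 (SE 0.22, adjusted p = 0.0220) with tamoxifen and 0.64 (SE 0.22, adjusted p = 0.0657) with the combination, the last not past the threshold. ESR1, the estrogen receptor, changed by 0.54, 0.44 and 0.40 in these arms and passed in none, with adjusted p of 0.0691, 0.180 and 0.207. Estradiol 4 and tamoxifen 1 stood apart in their smooth muscle markers. The score of that list, which averages the log2 deviation of its 11 annotated genes (of 15) from each gene's own mean, was -3.44 on estradiol 4 and -0.86 on tamoxifen 1, and ran from 0.051 to 0.63 on the other 14 arrays. Epithelium scores were highest of their arms on the same arrays, at 0.94 and 0.81. Markers of the labelled tissue were present: the epithelial adhesion gene EPCAM ran from 1041 to 2617 with estradiol, 950 to 3063 with tamoxifen, 1665 to 2474 with the combination and 629 to 955 in controls. The smooth muscle gene MYH11 ran from 339 to 8919 with estradiol and 5214 to 10856 with tamoxifen. It ran from 9062 to 12057 with the combination and 9163 to 11655 in controls, above EPCAM on every array of these 2 arms.

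DLK1, a membrane protein with EGF-like repeats that resembles the Notch ligands and keeps precursor cells such as preadipocytes from maturing, was dim in every control and brighter on 11 of the 12 drug arrays than on any control array. Its signals on probe set MmugDNA.25115.1.S1_at were 230.2, 181, 1179 and 30.0 with estradiol (arrays 1 to 4), 105, 602, 135 and 242 with tamoxifen, 3271, 423, 256 and 464 with the combination, and 43.6, 50.0, 13.8 and 28.9 in controls. The exception was estradiol 4, at 30.0, which lay inside the control range, so the estradiol and control arms overlapped, while the tamoxifen and combination arms did not overlap with the controls. Combination 1, at 3271, was the brightest of all 16.

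Mean log2 values of DLK1 were 7.69 ± 2.08 with estradiol, 7.77 ± 1.09 with tamoxifen, 9.33 ± 1.61 with the combination and 5.17 ± 0.70 in controls (SD, n = 4 each). The differences from control were 2.52, 2.61 and 4.16 on the log2 scale, which are folds of 5.73, 6.09 and 17.9, and understate the change of a dim probe set because of the pseudocount. Medians were 205, 188 and 444 in the estradiol, tamoxifen and combination arms and 36.3 in controls. In order of mean log2 value the combination came first, then tamoxifen, estradiol and control, while by median and by mean signal (405 with estradiol and 271 with tamoxifen) estradiol came before tamoxifen. Each pair of neighbours in this order overlapped array by array: the combination exceeded tamoxifen by 1.56 and estradiol by 1.64, and tamoxifen exceeded estradiol by 0.089, beside SDs of 1.09 to 2.08 within these arms. The control mean of 5.17 lies below the limit of 5.36 that a probe set's mean over all arrays had to reach, so DLK1 was retained through its level in the drug arms.

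**Figure D1:**
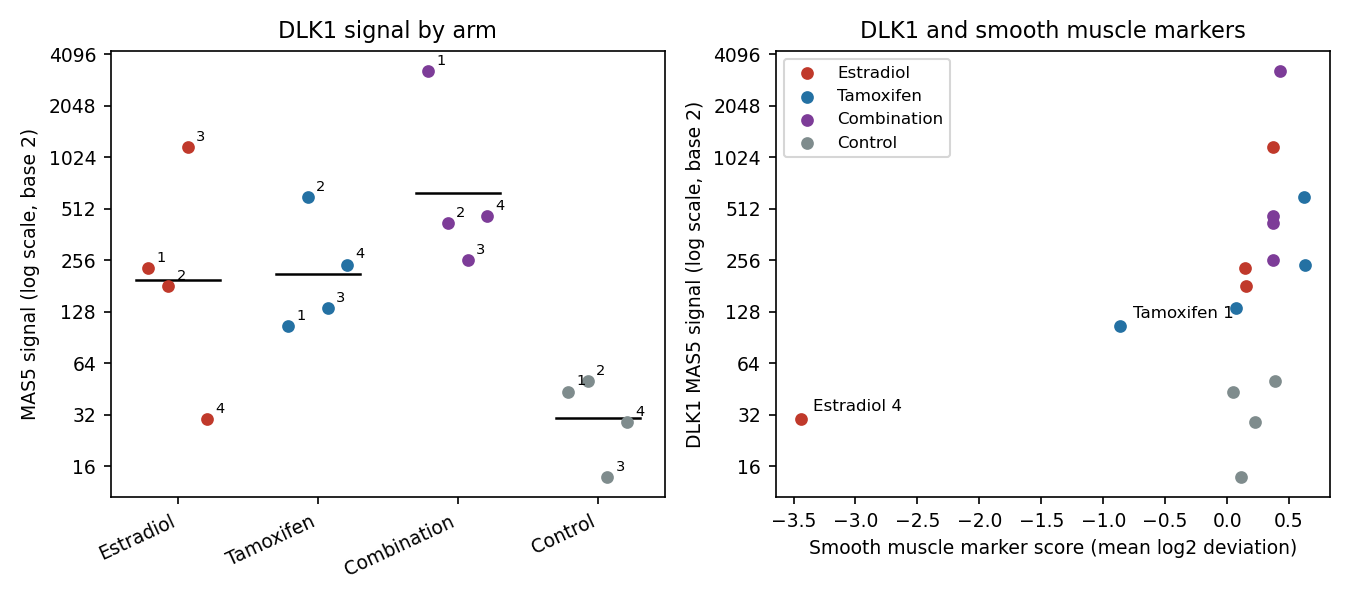
Left, DLK1 signal on each array by arm (log axis; numbers are the animals' numbers, bars the mean of log2 values). Right, the same signals against the smooth muscle marker score. Combination 1 stands at 3271 and estradiol 4 at 30.0, within the control range of 13.8 to 50.0; estradiol 4 and tamoxifen 1 are the arrays with the lowest muscle scores, -3.44 and -0.86.

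Single arrays carried part of these differences. Without combination 1 the combination differed from control by 3.38, and without combination 3 by 4.60. The estradiol difference was 1.68 without estradiol 3 and 3.37 without estradiol 4, and the tamoxifen difference ran from 2.12 without tamoxifen 2 to 2.94 without tamoxifen 1. The lowest DLK1 signal of the estradiol arm and of the tamoxifen arm stood on estradiol 4 and tamoxifen 1, the arrays with the lowest smooth muscle scores and highest epithelium scores. Without these arrays the differences were 3.37 with estradiol and 2.94 with tamoxifen, and 4.16 with the combination. Summed signals of the smooth muscle markers ran from 8507 to 59167 with estradiol, 29774 to 69750 with tamoxifen, 57636 to 62845 with the combination and 48517 to 58774 in controls. The controls had muscle scores of 0.051 to 0.39 and DLK1 signals of 13.8 to 50.0. In whole tissue, fewer cells of a type and less RNA per cell cannot be told apart, and the part of tissue makeup in the DLK1 levels was not tested.

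DLK1 is also a product of steroid-producing cells, and their markers were near background in all arms. CYP17A1 ran from 5.41 to 24.8 with estradiol, 2.64 to 29.1 with tamoxifen, 1.80 to 25.8 with the combination and 4.52 to 24.1 in controls, and STAR from 11.3 to 37.2 over all 16 arrays. The summed signal of the 7 annotated genes of that list of 10 was 173 to 236 with estradiol, 188 to 280.2 with tamoxifen, 165 to 239 with the combination and 157 to 278 in controls. These ranges overlap in all arms, and none of the listed defining markers was at 0.

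The genes whose log2 values followed DLK1 most closely over the 16 arrays were found among 10704 tested genes, as a description. KALRN, a guanine nucleotide exchange factor, had r = 0.896, COL12A1, a fibril-associated collagen chain, r = 0.892, and PTPN11, the phosphatase SHP2, r = 0.880. LOC703511, PEPD, a peptidase that splits proline dipeptides, and FIG4, a phosphoinositide phosphatase, followed at 0.870, 0.864 and 0.858. Spearman's rho for these 6 ran from 0.815 to 0.921. The points share arms, so the same correlation was taken on deviations from arm means. It was 0.739 for KALRN, 0.758 for COL12A1 and 0.797 for PTPN11. The 6 were picked for their r on these same arrays, so no such value is a separate check. Without combination 1 and control 3, the arrays farthest from the DLK1 median on each side, KALRN had r = 0.870 and COL12A1 r = 0.860. Each of the 6 had its lowest signal of the estradiol arm on estradiol 4 and of the tamoxifen arm on tamoxifen 1, as DLK1 did. Genes picked for following DLK1 share its lowest arrays in part through that choice. Estradiol 4 and tamoxifen 1 are the arrays with the lowest smooth muscle scores. Not all of the 6 were at the control level on estradiol 4. KALRN read 767, 821, 902 and 428 with estradiol and 348 to 468 in controls, and COL12A1 read 7499.9, 7202, 7659 and 3929 with estradiol and 4171 to 4550.3 in controls. PEPD read 722 on estradiol 4 and 653 to 761 in controls, and FIG4 read 341 on estradiol 4 and 417 to 791 in controls. PTPN11 and LOC703511, at 1706 and 623 on estradiol 4, were above every control, at 1429 to 1567 and 442 to 544.

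The genes that ran most against DLK1 were LOC699424 at r = -0.848, ZC3H13 at -0.842, PHF21A at -0.833, SOX4, a transcription factor, at -0.833, SLC7A7, an amino acid transporter, at -0.830 and SNX29 at -0.826. None of the imprinted genes was among the closest. PHLDA2 had r = 0.648 with DLK1, PEG3 0.441, MEST 0.395, GRB10 0.158, IGF2 -0.011 and PLAGL1 -0.453. On deviations from arm means PHLDA2, PEG3 and MEST stood at -0.085, -0.039 and -0.28 and GRB10 at 0.631.

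MEST, a paternally expressed gene for a protein of the alpha/beta hydrolase fold, rose in all 3 drug arms, and no drug array overlapped with a control array. Its signals were 3136, 3060, 1673 and 3354 with estradiol, 2382, 1646, 1889 and 1810 with tamoxifen, 1952, 1359, 1121 and 1394 with the combination, and 701, 694, 679 and 605 in controls. The controls lay within a narrow band. Of the drug arms the combination had the mean nearest to them, though its arrays overlapped with those of both other drug arms. The change from control was 2.01 (SE 0.20, adjusted p = 2.73e-05) with estradiol, 1.51 (SE 0.20, adjusted p = 0.000587) with tamoxifen and 1.09 (SE 0.20, adjusted p = 0.00278) with the combination, which are folds of 4.03, 2.85 and 2.13. MEST passed the threshold in each of these comparisons whichever array was left out, with an adjusted p of at most 0.0112.

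Within the estradiol arm MEST was lowest on estradiol 3, at 1673, the array with the highest DLK1 signal of that arm and the lowest cell division score, 0.32. It was highest on estradiol 4 and, in the tamoxifen arm, on tamoxifen 1, the arrays on which DLK1 was lowest. The cell division score, over 10 annotated genes of a list of 15, ran from 0.32 to 1.54 with estradiol, -0.95 to 0.25 with tamoxifen, -0.50 to 0.12 with the combination and -0.79 to -0.54 in controls. MKI67, the gene of the proliferation antigen Ki-67, changed by 1.5 (SE 0.28, adjusted p = 0.00156) with estradiol, by -0.072 with tamoxifen and by 0.12 with the combination (adjusted p = 0.897 and 0.807). The cell division list had median changes of 1.74, 0.29 and 0.35 in these arms, and its score on every combination array was above every control array, as MEST was. The part of cell division in the MEST levels was not tested.

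PEG3, a paternally expressed zinc finger protein, rose with each drug alone on both of its probe sets. On MmugDNA.25999.1.S1_at, the brighter, signals were 3129, 1785, 2511 and 2297 with estradiol, 2251, 1447, 1491 and 2270.1 with tamoxifen, 1792, 2123, 1780 and 984 with the combination, and 754, 765, 1016 and 1010 in controls. Every estradiol and tamoxifen array was above every control array, and combination 4, at 984, lay inside the control range. The changes were 1.44 (SE 0.23, adjusted p = 0.000620) with estradiol, 1.05 (SE 0.23, adjusted p = 0.00956) with tamoxifen and 0.87 (SE 0.23, adjusted p = 0.0210) with the combination. The combination's change did not pass without control 1, control 2, combination 1, combination 2 or combination 3, where it was 0.80, 0.80, 0.82, 0.74 and 0.82 with adjusted p from 0.0503 to 0.0683.

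The second PEG3 probe set read 2924, 1150.1, 2002 and 1748 with estradiol, 1771, 940.1, 1189 and 1880 with tamoxifen, 1104, 1043, 1068 and 555 with the combination, and 370.0, 512, 649 and 780 in controls. It rose by 1.73 (SE 0.31, adjusted p = 0.00123) with estradiol and 1.31 (SE 0.31, adjusted p = 0.0132) with tamoxifen. With the combination its change was 0.70 (SE 0.31, adjusted p = 0.140), so the 2 probe sets of PEG3 differed in the call for that arm.

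PHLDA2, a maternally expressed pleckstrin homology protein that restrains placental growth in mice, was near the bottom of the signal range in controls and higher in every drug array. Signals were 65.7, 55.8, 45.0 and 52.4 with estradiol, 55.2, 46.8, 36.8 and 57.9 with tamoxifen, 87.1, 46.7, 84.1 and 47.4 with the combination, and 6.08, 8.37, 21.7 and 10.8 in controls. The lowest drug array, tamoxifen 3, was above the highest control array, control 3. The differences from control were 1.92 with estradiol, 1.77 with tamoxifen and 2.13 with the combination. Its mean over all arrays, 5.42, was just above the filter limit of 5.36 and its control mean was 3.96, so it entered the fit through the drug arms and had to differ, and no test is read from these differences.

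GRB10, an adaptor protein that dampens the insulin and IGF1 receptors, was the member called lower, in the estradiol arm. On MmuSTS.1469.1.S1_at signals were 852, 731, 1074 and 665 with estradiol, 1078, 1529, 1125 and 1221 with tamoxifen, 1379, 1401, 1633 and 1218 with the combination, and 1292, 1483, 1257 and 1492 in controls. All estradiol arrays lay below all control arrays, and the other arms overlapped with control. The change was -0.75 (SE 0.15, adjusted p = 0.00205) with estradiol, a level 1.68-fold below control. It was -0.17 (95% interval -0.48 to 0.15, adjusted p = 0.491) with tamoxifen and 0.025 (95% interval -0.29 to 0.34, adjusted p = 0.930) with the combination.

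The second GRB10 probe set, MmugDNA.5089.1.S1_at, read 231, 238, 316 and 176 with estradiol, 318, 408, 295 and 308 with tamoxifen, 324, 438, 502 and 302 with the combination, and 398, 394, 418 and 455 in controls. It fell by 0.81 (SE 0.18, adjusted p = 0.00513) with estradiol and was not called for tamoxifen or the combination. The third, MmugDNA.34521.1.S1_at, was dim, at 27.9 to 71.6 over all 16 arrays, and its change with estradiol was -0.47 (SE 0.27, adjusted p = 0.222).

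PLAGL1, a paternally expressed zinc finger transcription factor that can halt the cell cycle, was lower in the means of all 3 drug arms and passed the test in none. Signals were 424, 304, 499 and 440.3 with estradiol, 494, 499, 388 and 554 with tamoxifen, 336, 497, 487 and 444 with the combination, and 571, 536, 606 and 517 in controls. The estradiol and combination arrays all lay below the control arrays. The changes were -0.43 (SE 0.16, adjusted p = 0.0584) with estradiol, -0.21 (SE 0.16, adjusted p = 0.410) with tamoxifen and -0.35 (SE 0.16, adjusted p = 0.155) with the combination. Without estradiol 3 the estradiol change was -0.53 and passed (adjusted p = 0.0294).

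IGF2, the fetal growth factor that acts through the IGF1 and insulin receptors, was not called in any comparison. Signals were 593, 406, 442 and 335 with estradiol, 395, 331, 352 and 222 with tamoxifen, 309, 228, 353 and 247 with the combination, and 326, 402, 270.3 and 329 in controls. All arms overlapped with the controls. Its change was 0.40 (95% interval -0.040 to 0.84, adjusted p = 0.173) with estradiol, -0.047 (95% interval -0.48 to 0.39) with tamoxifen and -0.23 (95% interval -0.67 to 0.21) with the combination.

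**Figure D2:**
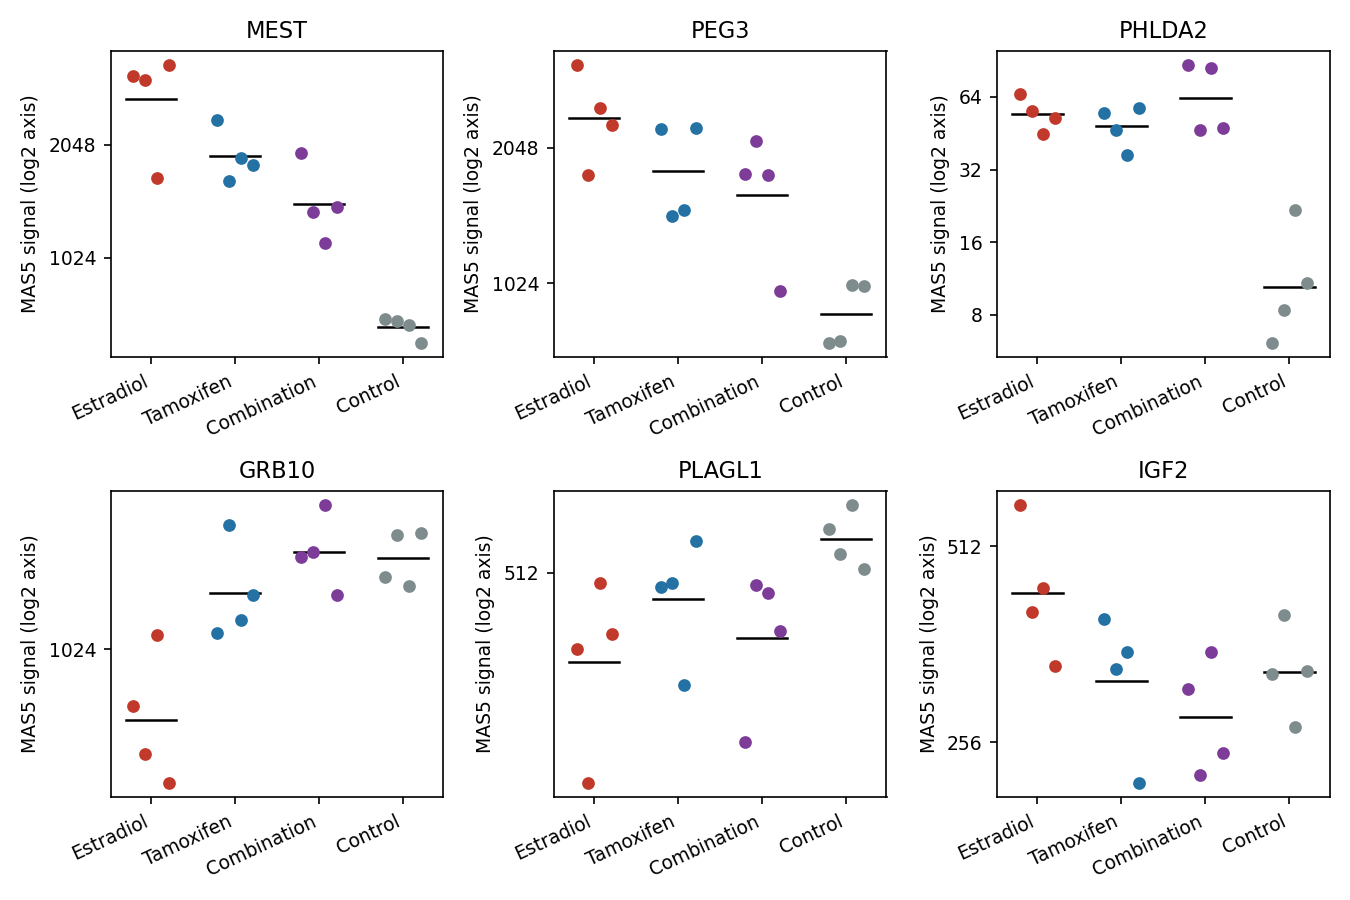
MAS5 signal of the 6 genes other than DLK1 on each array (log axes with a range of their own in each panel), each through its brightest probe set; bars are means of log2 values, n = 4 per arm. MEST and PHLDA2 of all drug arrays lie above the controls, GRB10 is below the controls with estradiol alone, and IGF2 overlaps in all arms.

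Of the 5 genes other than DLK1 and PHLDA2, 2 rose with estradiol, 1 fell and 2 did not pass, where 16.5% of 10705 genes rose and 13.2% fell. With tamoxifen 2 rose and 3 did not pass, where 8.59% of genes rose and 7.64% fell. With the combination 2 rose and 3 did not pass, where 10.6% rose and 9.09% fell. The genes that rose were MEST and PEG3 in each arm. With PHLDA2, which had to differ, the calls numbered 4, 3 and 3 of 6 genes. With so few members, and members chosen with results known, these counts describe the genes named and nothing beyond them.

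**Figure D3:**
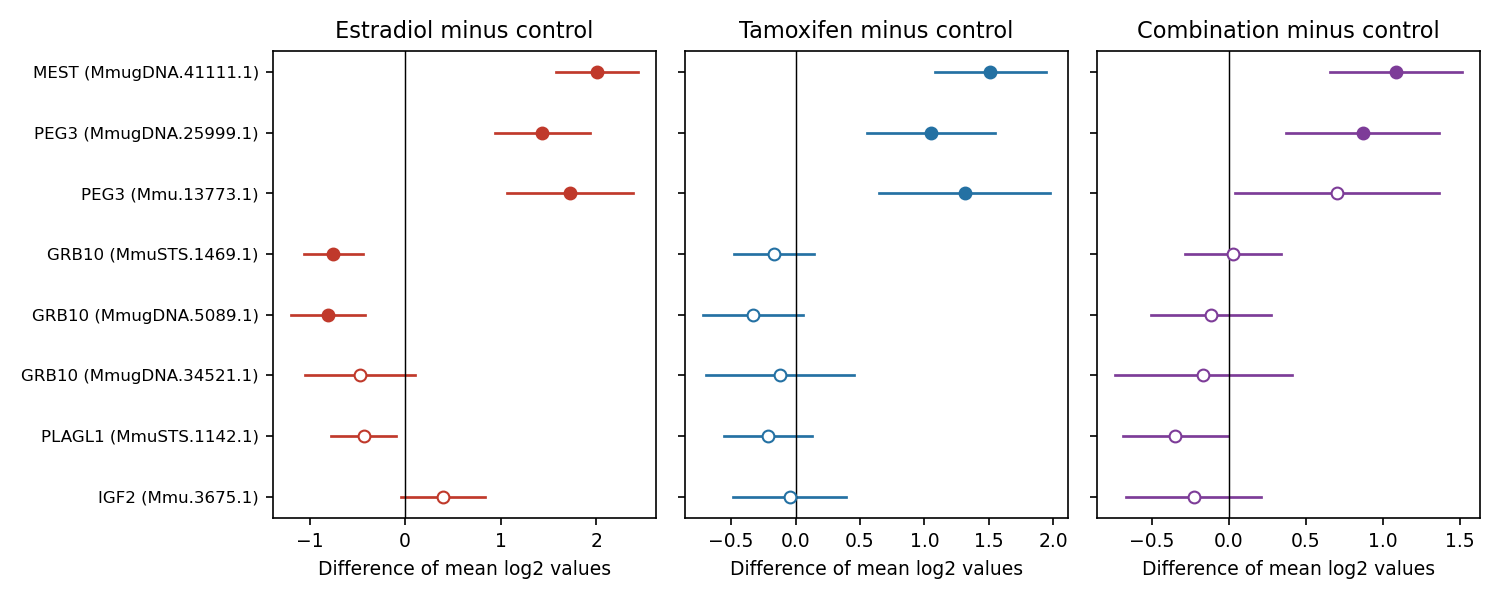
Difference of mean log2 values from control for the 8 probe sets of MEST, PEG3, GRB10, PLAGL1 and IGF2 in each drug arm, with 95% intervals from limma; filled points passed an adjusted p under 0.05. Both PEG3 probe sets are filled with estradiol and with tamoxifen and 1 of them with the combination, and 2 of the 3 GRB10 probe sets are filled with estradiol alone.

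Tamoxifen added to estradiol was read against estradiol alone. GRB10 was higher in the combination, with signals from 1218 to 1633 against 665 to 1074 with estradiol and no overlap, a change of 0.77 (SE 0.15, adjusted p = 0.0249). MEST was lower in the combination, with signals from 1121 to 1952 against 1673 to 3354 with estradiol, a change of -0.92 (SE 0.20, adjusted p = 0.0411). The control means do not enter the changes in this comparison or the next ones between drug arms, so PHLDA2 is counted in them. The control arrays do enter the residual spread, and so each SE and p. The calls were 1 gene higher and 1 lower of 6, where 0.448% of all genes were called higher and 0.878% lower. An unadjusted p under 0.05, for which no share of all genes is given, was found for 4 of the 6. IGF2 changed by -0.63 (SE 0.21, adjusted p = 0.141), PEG3 by -0.57 (SE 0.23, adjusted p = 0.249), PLAGL1 by 0.086 and PHLDA2 by 0.21.

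Both calls rested on the full set of arrays. GRB10 passed without estradiol 3 or combination 4 and missed the threshold without any of the other 6 arrays, at changes from 0.68 to 0.79 and an adjusted p of up to 0.0864. MEST passed without estradiol 3 or combination 1 and missed it without any of the other 6, at changes from -0.91 to -0.81 and an adjusted p of up to 0.142. The second GRB10 probe set gave 0.69 (SE 0.18, adjusted p = 0.0742) and the dim MmugDNA.34521.1.S1_at 0.31 (adjusted p = 0.638).

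Combination against tamoxifen gave 0 calls among the 6 members by limma, also 0 at an unadjusted p under 0.05, and 0% of all genes were called in either direction. The changes ran from -0.42 (95% interval -0.85 to 0.0076) for MEST to 0.36 (95% interval -0.23 to 0.95) for PHLDA2. Tamoxifen against estradiol gave 0 calls by limma, where 0.149% of all genes were called higher and 0.56% lower. At an unadjusted p under 0.05, for which no share of all genes is given, there were 3 members. Those 3 were GRB10 at 0.58 (SE 0.15, adjusted p = 0.0946), MEST at -0.50 (SE 0.20, adjusted p = 0.299) and IGF2 at -0.44 (SE 0.21, adjusted p = 0.380). Without estradiol 3, GRB10 at 0.71 and MEST at -0.73 passed, with adjusted p of 0.0174 and 0.0290.

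The interaction compares the effect of estradiol in the presence of tamoxifen with its effect in the absence of tamoxifen. It was below 0 for MEST at -2.43 (SE 0.29, adjusted p = 0.00119) and PEG3 at -1.62 (SE 0.33, adjusted p = 0.00932), and above 0 for GRB10 at 0.94 (SE 0.21, adjusted p = 0.0132). That is 1 member higher and 2 lower of 5, where 4.77% of all genes were higher and 6.55% lower. MEST differed by 2.01 between estradiol and control, and by -0.42 between the combination and tamoxifen. GRB10 differed by -0.75 and 0.19 in the same pairs of arms. The second PEG3 probe set gave -2.33 (SE 0.44, adjusted p = 0.00650) and the second GRB10 probe set 1.02 (SE 0.26, adjusted p = 0.0242). IGF2 and PLAGL1, at -0.58 and 0.30, did not pass (adjusted p = 0.226 and 0.441). PHLDA2 had a value of -1.56, which rests on the controls' low level and is given with no test.

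**Figure D4:**
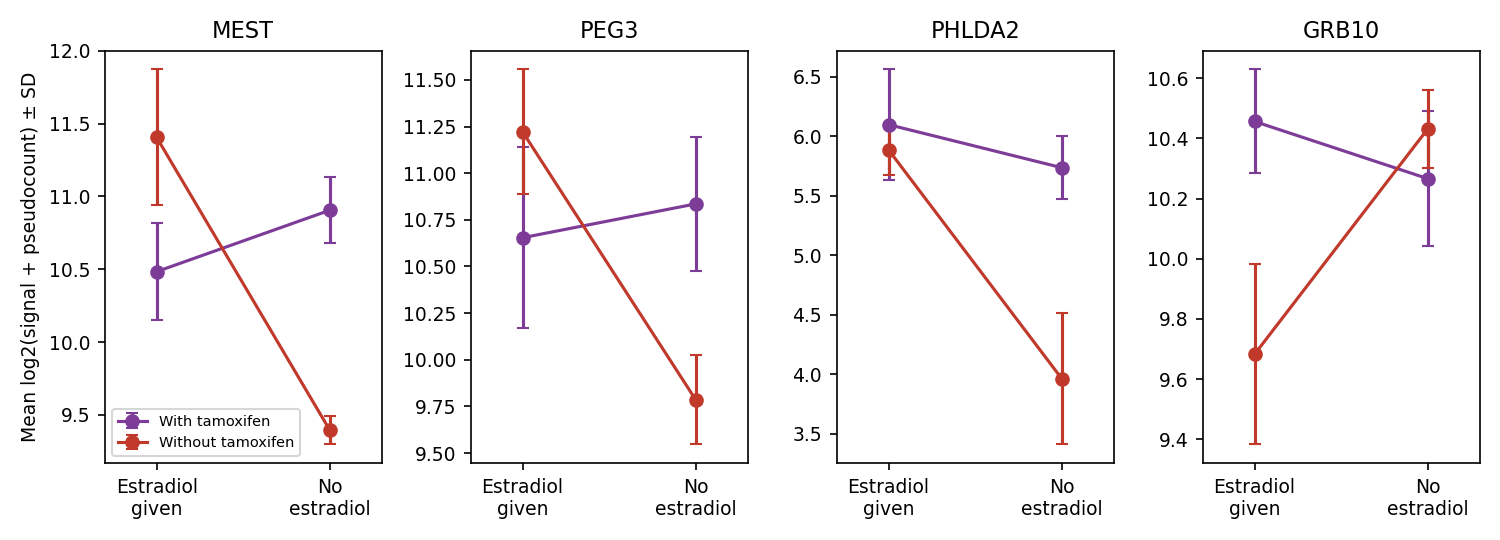
Mean log2(signal + 4.80) ± SD (n = 4 per point) of 4 genes with estradiol given and not given, with tamoxifen and without it. The lines cross for MEST, PEG3 and GRB10: MEST stood at 11.41 with estradiol alone and 9.39 in controls, and at 10.48 in the combination and 10.91 with tamoxifen alone.

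Cell type markers moved with the arms beside these genes. The stroma score, over 12 annotated genes of a list of 14, ran from 0.27 to 0.48 with estradiol, -0.084 to 0.44 with tamoxifen, -0.18 to 0.27 with the combination and -0.61 to -0.47 in controls. Their summed signal was 51966 to 58913, 41319 to 55379 and 37722 to 50216 in the estradiol, tamoxifen and combination arms, and 35229 to 37936 in controls. The epithelium score, over 12 of 16, ran from -0.14 to 0.94, -0.49 to 0.81 and 0.00071 to 0.51 in these arms, and -0.72 to -0.70 in controls. Both scores were higher on every drug array than on any control array, as were MEST and PHLDA2. The endothelium score, over 11 of 12, ran from -0.54 to 0.0074 with estradiol, -0.32 to 0.34 with tamoxifen, -0.33 to 0.20 with the combination and 0.19 to 0.44 in controls. It was below every control on all 4 estradiol arrays, on tamoxifen 1, 2 and 4 and on combination 1, 2 and 4. Of the leukocyte markers, 8 of 11 annotated and 7 tested, 0 were called with estradiol, where 16.5% of all genes rose and 13.2% fell. With tamoxifen 1 rose and 3 fell (14.3% and 42.9%, where 8.59% and 7.64% did). With the combination 1 rose and 3 fell (14.3% and 42.9%, where 10.6% and 9.09% did). The leukocyte score ran from -0.55 to 0.28 with estradiol, -0.46 to 0.20 with tamoxifen, -0.40 to 0.12 with the combination and -0.032 to 0.72 in controls. PTPRC, the pan-leukocyte antigen CD45, read 336 to 973 with estradiol, 168 to 476 with tamoxifen, 195 to 674 with the combination and 819 to 1409 in controls. The summed signal of the 8 annotated leukocyte genes did not follow PTPRC. It was 2607 to 6674 with estradiol and 4483 to 10951 with tamoxifen. With the combination it was 6437 to 12584, above every control, at 2606 to 5163. The part of these cell types in the members' changes was not tested.

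**Figure D5:**
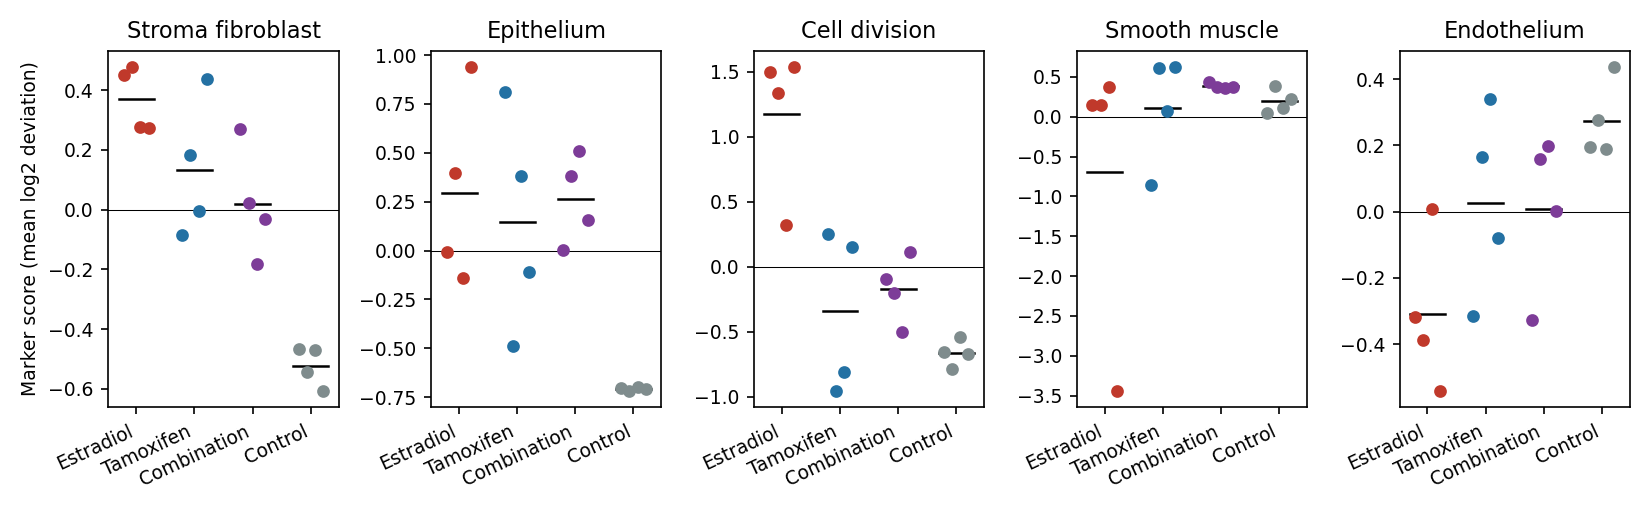
Marker scores on each array by arm (mean log2 deviation of a list's genes from their means over all 16 arrays; bars are arm means). Stroma and epithelium scores of every drug array lie above those of the controls, and estradiol 4 stands at -3.44 for smooth muscle.

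Actin control probe sets gave a 3' over 5' signal ratio, which tracks RNA integrity and amplification, of 0.57 ± 0.18 with estradiol, 0.52 ± 0.043 with tamoxifen, 0.55 ± 0.075 with the combination and 0.92 ± 0.11 in controls on the log2 scale (SD, n = 4 each). It separated 11 of the 12 drug arrays from the controls; estradiol 4, at 0.83, lay within the control range of 0.76 to 1.02. DLK1 was also in the control range on that array, while MEST, at 3354, was the highest of all 16. The part of RNA quality in the members' changes was not tested.

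Other imprinted genes were called in both directions. Of 41 symbols listed, 23 were annotated and 17 tested, of which 6 rose and 3 fell with estradiol (35.3% and 17.6%, where 16.5% and 13.2% of all genes did). With tamoxifen 4 rose and 1 fell (23.5% and 5.88%, where 8.59% and 7.64% did), and with the combination 2 rose and 1 fell (11.8% and 5.88%, where 10.6% and 9.09% did), which is near the share of all genes. The median change of the 17 was 0.0050, -0.056 and -0.025 in these arms, and that of all genes 0.011, -0.018 and -0.013. H19, the maternally expressed noncoding RNA beside IGF2, rose by 0.75 (SE 0.17, adjusted p = 0.00424) with estradiol, and its change was -0.056 with tamoxifen (adjusted p = 0.862) and -0.46 with the combination (adjusted p = 0.0698). In the combination H19 was lower than with estradiol, a change of -1.21 (SE 0.17, adjusted p = 0.00460). MAGEL2 and NDN, paternally expressed neighbours in the Prader-Willi region of the human genome, rose by 0.90 and 0.51 with estradiol (adjusted p = 0.00765 and 0.00932). SGCE, a sarcoglycan gene, fell by 0.67 with estradiol and by 0.63 with the combination (adjusted p = 0.00876 and 0.0182). SNRPN rose by 0.32 (SE 0.095, adjusted p = 0.0388) with tamoxifen. Its mean log2 values were 11.43 with estradiol, 11.59 with tamoxifen, 11.52 with the combination and 11.27 in controls.

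KCNQ1 and SLC22A18, which in humans lie in the imprinted cluster that also holds CDKN1C and PHLDA2, rose with each treatment. KCNQ1, a potassium channel gene, rose by 0.73, 0.79 and 1.02 with estradiol, tamoxifen and the combination (SE 0.19, adjusted p = 0.0124, 0.0151 and 0.00308). SLC22A18, a transporter gene, rose by 0.88, 0.95 and 1.18 (SE 0.29, adjusted p = 0.0373, 0.0425 and 0.0139). DIO3, a thyroid hormone deiodinase gene and an imprinted neighbour of DLK1, fell by 1.48 (SE 0.47, adjusted p = 0.0304) with estradiol and by 1.56 (SE 0.47, adjusted p = 0.0384) with tamoxifen. It changed by -1.26 (adjusted p = 0.0794) with the combination. The direction of DIO3 was against that of DLK1 in all 3 arms, while other neighbours of DLK1 rose.

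In the cynomolgus assembly T2T-MFA8v1.1 the CDKN1C and PHLDA2 genes lie on chromosome 14 with 1 coding gene between them, and IGF2 lies on the same chromosome, 10 coding genes from CDKN1C. For each member the 3 nearest tested coding genes on either side were read, a choice made after the data were seen, which gave 42 genes. Of these 9 rose and 7 fell with estradiol (21.4% and 16.7%, where 16.5% and 13.2% of all genes did). With tamoxifen 8 rose and 3 fell (19% and 7.14%, where 8.59% and 7.64% did), and with the combination 8 rose and 1 fell (19% and 2.38%, where 10.6% and 9.09% did). No test compared the neighbours with other genes. Of the 6 neighbours of DLK1, 2 rose and 1, DIO3, fell with estradiol and again with tamoxifen, and 1 rose and 0 fell with the combination. WARS1 rose by 0.58 with estradiol and 0.50 with tamoxifen (adjusted p = 0.00319 and 0.0155). PPP2R5C rose by 0.69 and 0.58 (adjusted p = 0.00612 and 0.0271), and HSP90AA1 rose by 0.80 (adjusted p = 0.0242) with the combination. By limma 0 of the 6 neighbours of MEST were called in any of these comparisons, also 0 at an unadjusted p under 0.05, and their changes with estradiol ran from -0.39 to 0.28 beside 2.01 for MEST. The neighbours of PEG3, all 6 of them zinc finger genes, had 3 that fell with estradiol and changes of -0.77 to 0.15, beside 1.44 for PEG3. Beside GRB10, which fell with estradiol, EGFR, the epidermal growth factor receptor gene, rose by 1.84, and COBL, an actin nucleator gene, by 1.00. ASCL2, a transcription factor gene near IGF2, rose by 1.67 (adjusted p = 0.0118) with tamoxifen and by 1.84 (adjusted p = 0.00590) with the combination, and changed by 0.78 with estradiol, which did not pass.

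The nearest relatives of the members by family were read beside them. Of 10 symbols 8 were tested, and 3 rose and 1 fell with estradiol (37.5% and 12.5%, where 16.5% and 13.2% of all genes did). With tamoxifen 2 rose and 1 fell (25% and 12.5%, where 8.59% and 7.64% did). With the combination 3 rose and 1 fell (37.5% and 12.5%, where 10.6% and 9.09% did). The median changes were -0.065, 0.065 and 0.11. IGF1, the estrogen-induced relative of IGF2, rose by 1.26, 1.26 and 1.06 in these arms (SE 0.18, adjusted p = 0.000216, 0.000762 and 0.00141), where IGF2 was not called. GRB14, an adaptor of the GRB10 family, rose by 1.32, 1.39 and 1.53 (SE 0.36, adjusted p = 0.0153, 0.0209 and 0.0113), where GRB10 fell with estradiol or was not called. PHLDA1 rose by 1.83 with estradiol and 1.05 with the combination (SE 0.23, adjusted p = 0.000125 and 0.00814), and changed by 0.61 with tamoxifen (adjusted p = 0.0962). CDKN1B, which encodes the kinase inhibitor p27 and is related to CDKN1C, fell by 1.25, 1.08 and 1.13 (SE 0.16, adjusted p = 0.000140, 0.00114 and 0.000614).

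Partners of IGF2 and GRB10 in insulin and IGF signalling were lower or not called. Of 15 symbols 11 were tested, and 4 fell with estradiol, 2 with tamoxifen and 3 with the combination (36.4%, 18.2% and 27.3%, where 13.2%, 7.64% and 9.09% of all genes fell), with median changes of -0.24, -0.11 and -0.24. IRS2, an insulin receptor substrate, fell by 1.58, 1.12 and 1.03 in these arms (SE 0.20, adjusted p = 0.000127, 0.00314 and 0.00398). NEDD4, the ubiquitin ligase that works with GRB10, fell by 0.36, 0.43 and 0.59 (SE 0.10, adjusted p = 0.0175, 0.0132 and 0.00180). PIK3CA, a catalytic subunit of phosphoinositide 3-kinase, fell by 0.48 with estradiol and 0.49 with the combination, and SHC1, an adaptor, fell by 0.24 with estradiol. IGF1R, through which IGF2 signals, and IGF2R, which clears it, were not called in these comparisons.

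The Notch pathway, in which DLK1 has been placed as an unusual ligand, had genes called in both directions. Of 31 symbols 21 were tested, and 5 rose and 5 fell with estradiol (23.8% each, where 16.5% of all genes rose and 13.2% fell). With tamoxifen 2 rose and 2 fell (9.52% each, where 8.59% and 7.64% did), near the share of all genes, and with the combination 4 rose and 2 fell (19% and 9.52%, where 10.6% and 9.09% did). The median changes were 0.079, -0.053 and 0.027. HEY1 and HEYL, target genes of Notch, rose in each arm: HEY1 by 1.52, 0.90 and 1.06 (SE 0.22, adjusted p = 0.000314, 0.0167 and 0.00621) and HEYL by 0.90, 0.66 and 0.74 (SE 0.13, adjusted p = 0.000261, 0.00472 and 0.00198). MAML3, a coactivator of the pathway, fell by 0.98, 0.59 and 0.69 (SE 0.14, adjusted p = 0.000212, 0.0119 and 0.00389). HEY2 rose by 1.22 with estradiol, NOTCH2, a receptor, by 0.49 with the combination, and NUMB, an inhibitor of Notch, fell by 0.30 with tamoxifen.

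CDKN1C itself was not analysed here, and a list of cell cycle genes was read in its place. The list held cyclins and cyclin-dependent kinases, and also E2F1, RB1, RBL1 and RBL2. Of 13 symbols 11 were tested, and 4 rose and 2 fell with estradiol (36.4% and 18.2%, where 16.5% and 13.2% of all genes did). With tamoxifen and with the combination 2 rose and 1 fell (18.2% and 9.09% in each). Of all genes 8.59% rose and 7.64% fell with tamoxifen, and 10.6% rose and 9.09% fell with the combination. The falls in these 2 arms are near the share of all genes. The median changes were 0.14, 0.031 and -0.15. The cyclin genes CCND1 and CCNE1 rose in each arm, CCND1 by 0.80, 0.96 and 1.34 (SE 0.24, adjusted p = 0.0247, 0.0174 and 0.00234) and CCNE1 by 1.24, 0.89 and 0.93 (SE 0.26, adjusted p = 0.00351, 0.0374 and 0.0269). CDK4 rose by 0.46 and CCNE2 by 1.08 with estradiol (adjusted p = 0.00130 and 0.00167). RBL2, a pocket protein that holds back the cell cycle, fell by 0.30, 0.34 and 0.28 (SE 0.08, adjusted p = 0.0157, 0.0153 and 0.0299).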

How the data were processed

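Endometrial RNA of 16 animals was hybridised to 1-colour Affymetrix rhesus arrays. Per the labels' protocols it was extracted with Tri Reagent, purified and amplified in a single round with an Enzo kit. The authors deposited linear intensity, 1 value per probe set and array, made with GCOS, Affymetrix Expression Console and MAS5, per the submitters' processing notes, with no versions named. MAS5 scaling makes every change relative to an array's total. Detection calls were not used.

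Values were taken to log2(signal + 4.80), the pseudocount being the 10th percentile of all values. The 99 control probe sets and the 40% of the other probe sets with the lowest mean were left out, which left 31659. limma 3.58.1 in R 4.3.3 was fitted with arm means over all 16 arrays (12 residual degrees of freedom, eBayes with a variance trend), with Benjamini-Hochberg adjustment over all probe sets in each of 7 comparisons. The fit was tested on simulated data. Each gene is represented by its brightest probe set.

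Symbols came from the platform annotation (24969 probe sets with 1 symbol, 361 with several, 27535 with none). Up to 4 genes of each list with the smallest p past the threshold were named for each comparison with control. Values in the other arms are given for part of them. Also named were the 6 genes most and the 6 least like DLK1, and ESR1, PGR and MKI67. The members and lists were chosen with earlier results of these data known. EGFR, COBL, ASCL2, WARS1, PPP2R5C and HSP90AA1 were named after their values were seen. The array probes can cross-hybridise with related transcripts, which was not examined. Alternatives were the pseudocount, filter, normalization, variance trend, array weights, block, arms fitted, probe set rule and arrays left out.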

Additional observations from a re-analysis of the deposited data

Results flagged for a closer look

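Within groups of 4 arrays, 5 of 60 arm and measure groups examined held an array whose gap to the nearest other array was past Dixon's 95% critical value for groups of that size, and chance alone gives about 1 in 20. The dimmer PEG3 probe set had a log2 value of 9.13 on combination 4 (signal 555), below the other combination arrays. MEST had 10.71 on estradiol 3 (signal 1673), below the other estradiol arrays. The smooth muscle score was -3.44 on estradiol 4, far below its arm, and 0.43 on combination 1, above the other 3 arrays of its arm, which all stood at 0.37. The cell division score was 0.32 on estradiol 3, below its arm.

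The effect of estradiol differed between animals with and without tamoxifen for MEST, PEG3 and GRB10 by limma's interaction term. The difference was -2.43 for MEST, -1.62 and -2.33 for the 2 probe sets of PEG3, and 0.94 and 1.02 for 2 probe sets of GRB10. PHLDA2 had -1.56, a value with no test read from it, since it passed the filter through the drug arms. What lies behind these differences was not tested.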

How the results depend on the processing

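The members called numbered 4, 3 and 3 of 6 with estradiol, tamoxifen and the combination against control, 2 for the combination against estradiol, 0 for the combination against tamoxifen, 0 for tamoxifen set against estradiol, and 4 in the interaction. Without PHLDA2, which had to differ from the controls, they numbered 3, 2, 2, 2, 0, 0 and 3 of 5. Of all genes, 16.5% rose and 13.2% fell with estradiol, 8.59% and 7.64% with tamoxifen, and 10.6% and 9.09% with the combination. The shares higher and lower were 0.448% and 0.878% for the combination against estradiol, and 4.77% and 6.55% in the interaction. They were 0.149% and 0.56% for tamoxifen against estradiol. Counts under the alternatives include PHLDA2, and shares of all genes under them are not given. For the combination against estradiol the count was 1 with no filter, with no variance trend, with the mean of a gene's probe sets, and without estradiol 4 and tamoxifen 1, and 0 in a fit of these arms only. For tamoxifen against estradiol it was 1 with array weights, through GRB10 at 0.61. With 1 array left out the counts ran from 4 to 5, 3 to 3 and 2 to 3 against control, 0 to 2 for the combination against estradiol, 0 to 2 for tamoxifen against estradiol, 0 to 0 for the combination against tamoxifen and 3 to 4 for the interaction. The DLK1 differences ran from 1.68 to 3.37, 2.12 to 2.94 and 3.38 to 4.60 when 1 array was left out.

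Over single genes, PHLDA2 included, and alternatives, 658 values kept their side of the threshold, 26 lost a call, 6 gained one and 0 reversed. PLAGL1 with estradiol passed with array weights (adjusted p = 0.0336) and with the mean of a gene's probe sets (adjusted p = 0.0468). GRB10 missed the interaction threshold with the mean of its probe sets (0.80, adjusted p = 0.0524). Where the alternative does not itself use fewer arrays or more probe sets, the cause was not tested. With the number in the titles as a replicate block, the counts were 4, 3, 3, 2, 0, 0 and 4, and no call changed. Deviations of the 24 same-number pairs correlated at -0.27 to 0.095, 0 of them above 0.1, and 1 of 16 arrays correlated best with its own number, so the numbers were not taken to pair animals. The alternatives without PHLDA2, and without estradiol 4 and tamoxifen 1 for DLK1, were chosen after seeing the data. Dim signals limit PHLDA2 and the third GRB10 probe set, and DLK1 in controls.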
